A study of Arabidopsis thaliana with 14 samples.

Results

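Auxin was compared with a time-matched mock treatment in roots of wild-type Arabidopsis thaliana, accession Col-0. The comparison sets 2 ATH1 arrays of Col-0 after 6 h in 10 µM NAA, a synthetic auxin, against 2 arrays of Col-0 after a mock treatment of 6 h. Its members are all probe sets, other than array controls, whose signal exceeded a fixed threshold on both arrays of at least one of these groups. The threshold is the pooled 40th percentile of all signals, 218.1, rounded down to a whole number. These were 14148 of 22746 probe sets, and 14883 passed the same rule in any of the 7 groups of the 14 arrays in the series. The last members inside the threshold had deciding signals of 218.1 (AT2G14130) and 218.2 (AT3G21360), and the nearest probe sets outside it were AT1G22460, whose lower NAA signal equalled the threshold to 1 decimal, and one with no gene named at 217.9.

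All seedlings of both groups had germinated on 10 µM NPA, an inhibitor of polar auxin transport, and were 3 days old when the treatments began. The mock roots had therefore also grown on NPA, and the composition of the mock medium is not given in the sources used here. RNA came from the root segment between meristem and hypocotyl. Per the labels, each time point pooled the segments of some 1500 seedlings, and 5.8 µg of RNA went into each labelling reaction. Another Col-0 group, 2 arrays taken at 0 h from seedlings of the same age on NPA, gives the levels before the treatments. Between this group and mock, effects of the handling and of the 6 h that passed cannot be told apart. The arrays are labelled as replicates. The p-values below set each difference between groups against the spread between replicates, whatever its source. That spread was estimated from all 14 arrays of the 7 groups. The description field of both mock samples names a tissue of another organism, whereas their titles, source names and extraction protocols name Col-0 root segments, so both were used as labelled.

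Auxin acts by removing Aux/IAA repressors from ARF transcription factors, which then activate genes that include the Aux/IAA genes themselves and the auxin-conjugating GH3 enzymes. In roots held on NPA the pericycle, the layer from which lateral roots arise, does not divide. Transfer to an auxin then starts its divisions along the segment in near synchrony, and the LBD and PUCHI transcription factors are known regulators of that program. A segment holds many cell types in bulk, so fewer cells of a type and less RNA per cell cannot be told apart.

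The 4 arrays were close in scale. Median signals were 383.8 and 382.1 on the NAA arrays and 382.4 and 379.4 on the mock arrays, and the 3' to 5' ratio of the GAPDH control was 0.666 and 0.561 with NAA and 0.742 and 0.609 with mock. Across the members, replicates correlated at 0.976 with NAA and 0.967 with mock, over probe sets that are not independent replicates. The median absolute difference between replicates was 0.278 on the log2 scale for members with a mean signal under 500 and 0.158 for those between 2500 and 5000, so differences of dim genes are less certain. Of 41 cell type markers, the annotation used here names probe sets for 5. The endodermal receptor kinase GSO1 and the root hair expansins EXPA7 and EXPA18 were detected on mock arrays, as were the shoot markers RCA and LHCB4.2, RCA at 2849.9 and 3841.4 with NAA and 6736.0 and 6868.0 with mock. What share of the segment's RNA came from green tissue was not tested.

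After 6 h of NAA, 3044 members (21.5%) were higher than in mock and 3634 (25.7%) were lower, at a Benjamini-Hochberg adjusted p under 0.05 in limma, so 47.2% of members passed in one direction or the other. The rises were larger. At least 8-fold differences were found for 212 members (1.5%) that were higher and 128 (0.905%) that were lower, and at least 2-fold differences for 1909 (13.5%) and 1614 (11.4%). Without any test, both NAA signals lay above both mock signals for 34.3% of members and below both for 42.5%, and every called member was among them. The median difference over all members was -0.09 on the log2 scale, with a median standard error of 0.21. By comparison, 6 h of mock against 0 h gave 441 higher (3.12%) and 302 lower (2.13%), together 5.25% of members. All differences are of log2(signal + 18.9), which compresses those of genes near or below that signal, and for a gene under the signal threshold in one group the size of the difference depends on that constant.

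**Figure D1:**
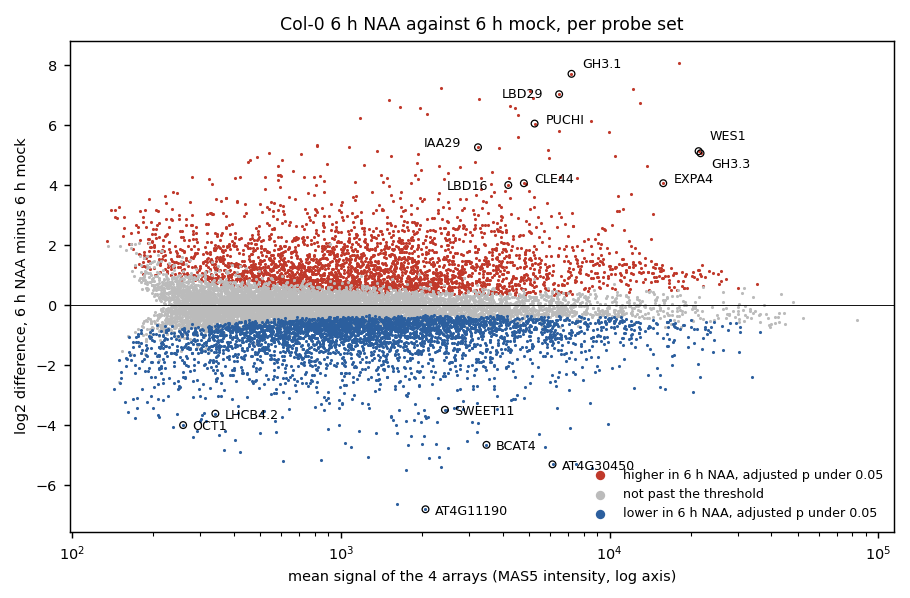
Each point is 1 of 14148 probe sets. The horizontal axis is the mean MAS5 signal of the 4 arrays on a log axis, and the vertical axis is the log2 difference, 6 h NAA minus 6 h mock; red and blue points passed the threshold and grey points did not. GH3.1 (7.72), LBD29 (7.04) and PUCHI (6.06) lie near the top and AT4G11190 (-6.81) at the bottom.

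The gene lists used below hold genes that the array annotation names, 800 genes of which 513 are members. They need not hold every gene of a family, so each count below is of the listed genes only. Over the 7594 genes that have a member probe set of their own, 21.7% were higher, 24.9% lower and the median difference was -0.09, and each list's counts can be read against these. A gene that passed the signal threshold in one group only was selected for a high signal there: of 1093 members that passed in NAA only, 607 were called higher, and of 986 that passed in mock only, 574 were called lower. The number that passed in both groups is therefore given beside the list, or here. It was 1 of 3 for the regulators of lateral root initiation, 10 of 12 for each of the lists of mitosis and of histones, 27 of 31 for UGT glycosyltransferases, 9 of 11 for glutathione transferases and 57 of 62 for the plastid genome, and in the lists described without it all or all but 1 passed in both.

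The auxin-conjugating enzymes and the Aux/IAA repressors gave some of the largest rises. GH3.1 had signals of 14877.7 and 13871.4 on the NAA arrays, against 18.5 and 105.6 on the mock arrays, and its log2 difference was 7.72 ± 0.43 (SE, n = 2 arrays per group, limma adjusted p = 1.52e-08). WES1, which encodes GH3.5, read 43514.2 and 39838.8 with NAA and 941.3 and 1431.7 with mock. GH3.3 read 43359.8 and 41303.7 with NAA and 1384.7 and 1109.9 with mock. The NAA and mock arrays were far apart for all 3 genes, and WES1 and GH3.3, unlike GH3.1, were above the signal threshold in mock roots. Their log2 differences were 5.14 ± 0.27 and 5.07 ± 0.28 (limma adjusted p = 1.06e-08 and 1.38e-08). GH3.17 was the remaining listed gene above the threshold, at 4265.9 and 3265.4 with NAA and 2448.6 and 3049.2 with mock, and did not pass (adjusted p = 0.068 in limma).

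Of 7 Aux/IAA genes named, 4 were members and all 4 rose, with a median log2 difference of 3.86; only 1 of them, IAA18, passed the signal threshold in both groups, and IAA31, IAA33 and IAA34 were below it in both. IAA29 had 6588.1 and 6086.8 in NAA roots, against 155.0 and 137.3 in mock roots. IAA18 had 4341.5 and 3883.4 in NAA roots, against 1033.2 and 1408.6 in mock roots. IAA18 was thus already present without NAA, and its difference of 1.75 ± 0.17 was the smallest of the 4 (limma adjusted p = 2.5e-06). IAA30 and IAA20, which belong to the Aux/IAA proteins that lack the degradation motif, differed by 4.16 ± 0.49 and 3.55 ± 0.84, and IAA20 remained dim with NAA at 412.1 and 334.9. YUC6, a flavin monooxygenase of auxin synthesis, fell: it had 46.5 and 43.7 with NAA and 462.8 and 573.4 with mock, a log2 difference of -3.06 ± 0.54 (limma adjusted p = 0.000398). YUC2, another enzyme of that step, had 287.5 and 452.2 with NAA and 506.5 and 483.5 with mock and did not pass (adjusted p = 0.198 in limma).

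The 3 regulators of lateral root initiation among the members rose; CR4, a receptor kinase of formative divisions, was below the signal threshold in both groups. LBD29, a LOB-domain transcription factor acting directly below ARF7 and ARF19, had 13989.8 and 11781.0 in NAA roots, against 168.9 and 32.2 in mock roots (log2 difference 7.04 ± 0.40, limma adjusted p = 2.03e-08). LBD16, its relative in the same pathway, had 8483.8 and 7374.9 with NAA and 480.4 and 463.9 with mock. PUCHI, an AP2/ERF factor of early primordia, had 11380.8 and 9395.6 with NAA and 121.3 and 152.7 with mock. LBD16 was thus above the signal threshold in mock roots, whereas LBD29 and PUCHI were below it. LBD16 and PUCHI differed by 4.01 ± 0.17 and 6.06 ± 0.29 on the log2 scale. CLE44, which encodes a secreted peptide that maintains vascular stem cells, rose as well, with 9577.2 and 8582.0 in NAA roots and 543.3 and 503.8 in mock roots (log2 difference 4.07 ± 0.20, limma adjusted p = 7.13e-09). CLE41, which encodes the same peptide, had a difference in the other direction, -0.42, and did not pass (adjusted p = 0.0798 in limma).

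**Figure D2:**
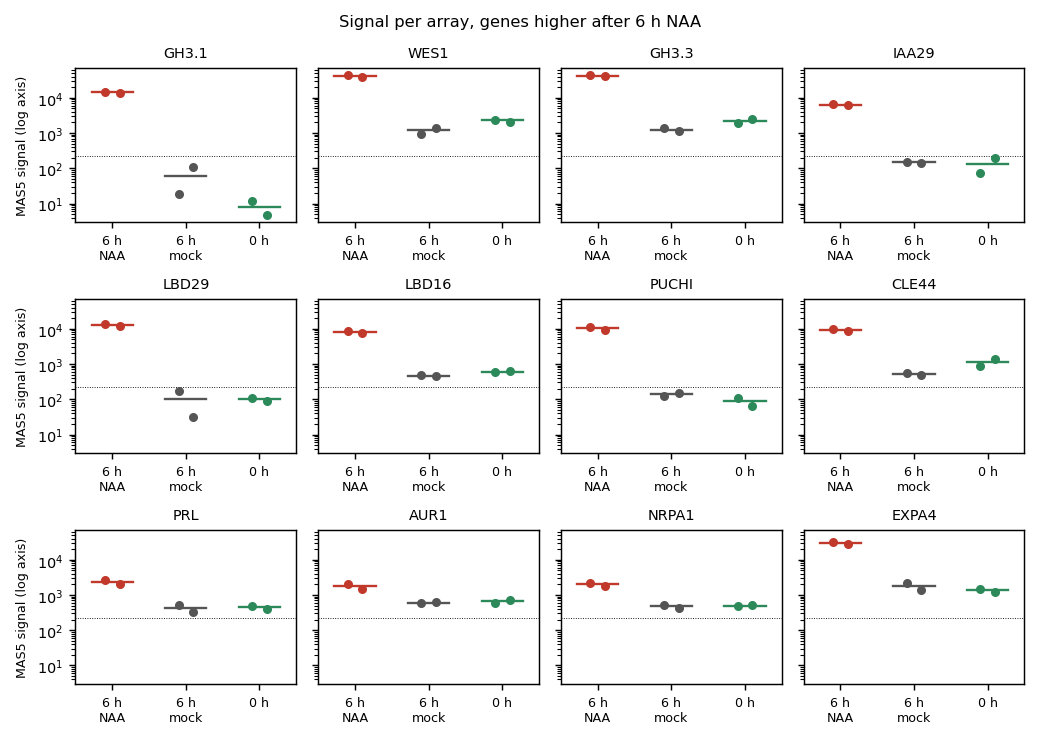
Signal of 12 genes that were higher after NAA, on each Col-0 array (points, 2 per group) at 6 h NAA, 6 h mock and 0 h, with the mean as a bar. The vertical axis is MAS5 signal on a log axis and the dotted line is the signal threshold; both NAA points lie above both mock points in every panel, and GH3.1, IAA29, LBD29 and PUCHI are below the line in mock.

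Genes of DNA replication rose together: all 5 measured were called higher, 4 of them above the signal threshold in both groups, with a median log2 difference of 1.53, against -0.09 over all genes. PRL, the MCM7 subunit of the replicative helicase, had 2697.4 and 2099.0 with NAA and 520.5 and 335.2 with mock (log2 difference 2.46 ± 0.25, limma adjusted p = 2.81e-06). ICU2, the catalytic subunit of DNA polymerase alpha, and POLA3, a primase subunit of the same complex, differed by 1.63 ± 0.30 and 1.53 ± 0.23. POLD3, of DNA polymerase delta, differed by 1.17 ± 0.25. PSF2, of the GINS complex, differed by 1.49 ± 0.42 and lost its call when NAA replicate 2 or mock replicate 2 was left out, with an adjusted p of at most 0.121.

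Mitotic and chromosomal genes split. Of 12 genes of mitosis and cytokinesis, 5 rose and 4 fell, and without 1 of the 4 arrays 2 to 3 rose and 2 to 3 fell. AUR1, an Aurora kinase, had 2102.7 and 1455.0 with NAA and 594.1 and 625.6 with mock (log2 difference 1.49 ± 0.23, limma adjusted p = 0.000109), and BUB3.1, a spindle checkpoint protein, had 1045.0 and 772.5 with NAA and 279.2 and 278.5 with mock. ATMAP65-6, a microtubule-associated protein, was lower instead, at 577.5 and 573.3 with NAA and 2316.3 and 2799.8 with mock (log2 difference -2.11 ± 0.20). KEU, which acts with the cytokinesis syntaxin, fell by 0.59 on the log2 scale. Among 12 histone and chromosome genes, 4 rose and 2 fell. TOPII, DNA topoisomerase II, and HTB1, a histone H2B, rose by 1.68 ± 0.38 and 1.38 ± 0.19, whereas the linker histones HON4 and HIS1-3 fell, with differences of -1.10 ± 0.15 and -1.56 ± 0.23. Of 6 cell cycle control genes none rose at an adjusted or at an unadjusted p under 0.05 in limma, and SKP2A, an F-box protein, fell (-0.69 ± 0.23), a call that was lost without NAA replicate 1, mock replicate 1 or mock replicate 2 (adjusted p up to 0.326). SIM, an inhibitor of cyclin-dependent kinases, had 5042.5 and 5135.8 with NAA and 5666.3 and 4990.6 with mock (adjusted p = 0.761 in limma). Genes of cell cycle control outside this list of 6 were not counted.

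Ribosome synthesis had the largest share of rises among lists with more than 10 genes measured: 13 of 15 genes rose, none fell at an adjusted or unadjusted p under 0.05 in limma, 13 of the 15 passed the signal threshold in both groups, and the median log2 difference was 1.79. The count was 13 without any one of the 4 arrays. AT5G14520, the nucleolar protein PESCADILLO, had 11357.6 and 10498.4 in NAA roots, against 1982.1 and 1557.8 in mock roots (log2 difference 2.62 ± 0.14, limma adjusted p = 1.06e-08). NRPA1 and NRPA2, the large subunits of RNA polymerase I, which makes the ribosomal RNA precursor, differed by 2.02 ± 0.16 and 1.95 ± 0.14. NRPC1 and NRPC2, the matching subunits of RNA polymerase III, differed by 1.31 ± 0.27 and 1.53 ± 0.24. RRP41L, similar to a subunit of the exosome that trims RNA, differed most, with 2118.9 and 1850.1 with NAA and 251.8 and 193.8 with mock (3.06 ± 0.25). Rises among 18 genes of RNA polymerase II and splicing were fewer and smaller, with 7 higher (10 at an unadjusted p), none lower by either and a median of 0.41; leaving out 1 array left 4 to 6 of them.

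Chaperones rose too, 11 of 17 with a median of 0.86 and none lower, also at an unadjusted p. BOB1, a small heat shock protein needed for development, had 5246.9 and 6135.8 with NAA and 2098.6 and 2545.4 with mock (log2 difference 1.29 ± 0.16, limma adjusted p = 1.63e-05). Cpn60beta2, a plastid chaperonin subunit, had 5099.3 and 6267.0 with NAA and 2179.6 and 1727.3 with mock. In the group, AT5G48570 had the largest difference but also the widest spread, with 1372.3 and 6721.8 with NAA and 539.9 and 276.0 with mock; its difference of 2.92 ± 0.70 became 1.78 (adjusted p = 0.0642) without NAA replicate 2. At 0 h its 2 arrays were also apart, at 696.7 and 2870.9.

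Cell wall genes changed in both directions. Of 9 expansins, proteins that loosen walls, 4 rose and 2 fell, and 7 of the 9 passed the signal threshold in both groups. EXPA4 had 32226.8 and 27490.7 in NAA roots, against 2246.1 and 1370.0 in mock roots (log2 difference 4.07 ± 0.27, limma adjusted p = 7.45e-08), and EXPA20 and EXPA15 differed by 3.12 ± 0.34 and 2.39 ± 0.31. EXPA7, a root hair expansin, went the other way at 214.9 and 54.5 with NAA and 547.3 and 502.0 with mock (-2.05 ± 0.68), a call lost without NAA replicate 2, mock replicate 1 or mock replicate 2. Of 6 GH9 endoglucanases, which cut cellulose-like glucans, 3 rose and 0 fell (4 and 1 at an unadjusted p). Of the 6, 3 passed the signal threshold in both groups. GH9B13 had 5766.9 and 4911.5 with NAA and 275.2 and 145.0 with mock, and GH9C2 had 25181.0 and 26534.1 with NAA and 3981.2 and 2414.4 with mock. The remaining rise, GH9B8, was small, at 0.55 ± 0.21 (limma adjusted p = 0.0424). Its difference was 0.31 without mock replicate 1 and 0.8 without mock replicate 2. SKU5, a membrane-anchored glycoprotein of directional root growth, rose by 2.8 ± 0.21 on the log2 scale. It was 1 of 2 measured genes of its family, and the other differed by -0.9 and did not pass.

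Xyloglucan endotransglucosylases and peroxidases were mostly lower. Of 4 measured xyloglucan endotransglucosylases, 3 of which passed the signal threshold in both groups, 3 fell and 1 rose, and XTH32 had 12.1 and 151.6 with NAA and 1260.3 and 857.5 with mock (log2 difference -3.86 ± 0.54, limma adjusted p = 5.97e-05). Its difference was -2.63 without NAA replicate 1 and -5.09 without NAA replicate 2. XTH18 was the rise, at 577.1 and 511.8 with NAA and 337.9 and 238.1 with mock (0.89 ± 0.30, limma adjusted p = 0.0274), a call lost without NAA replicate 1, NAA replicate 2 or mock replicate 2 (adjusted p up to 0.184). Among 16 TBL proteins, a family of wall polysaccharide acetyltransferases, 6 fell, 1 rose (2 without mock replicate 1) and 9 did not pass, with a median of -0.21, and 13 of the 16 passed the signal threshold in both groups. TBL38 had 250.8 and 282.5 with NAA and 1805.7 and 1794.0 with mock, and TBL36, the rise, had 9130.4 and 6522.0 with NAA and 1010.6 and 383.2 with mock. Of 10 xylan and cellulose-synthase-like genes, 2 fell, 1 rose and 7 did not pass. Of 5 class III peroxidases, enzymes that can cross-link walls, 4 fell and none rose, also at an unadjusted p, and AT5G66390 (PRX72) had 1665.3 and 1539.5 with NAA and 4112.4 and 4392.6 with mock. The smallest of these falls, AT5G64120, was nearer the threshold, at -0.70 ± 0.23 (limma adjusted p = 0.0261).

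**Figure D3:**
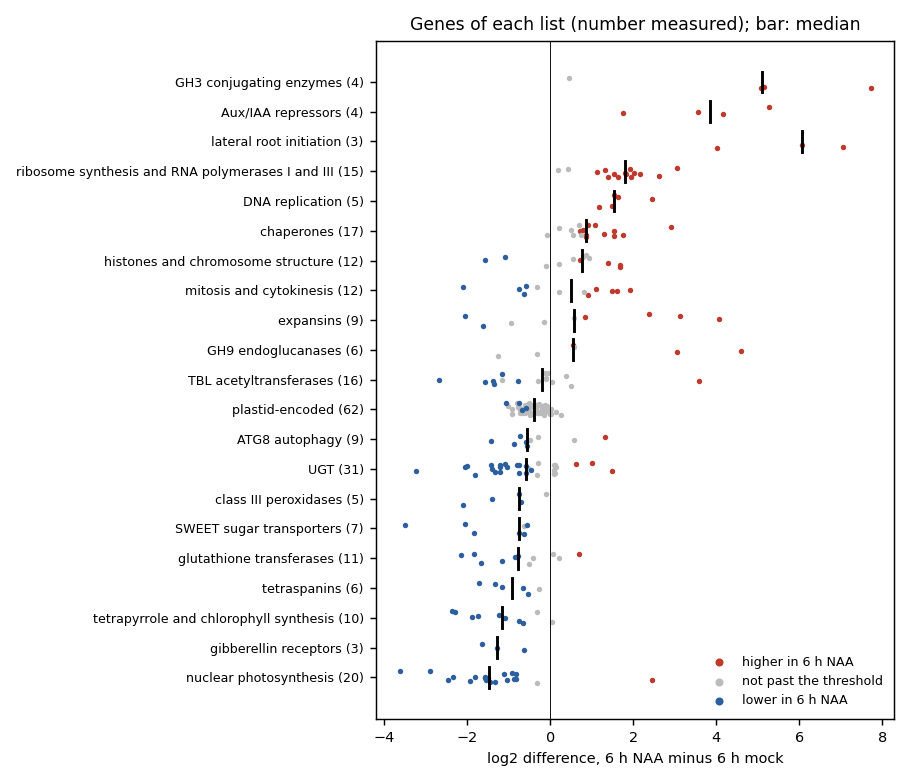
Log2 difference, 6 h NAA minus 6 h mock, of each measured gene (points) in 21 gene lists, with the number measured in brackets and the median as a black bar; red and blue points passed the threshold. The medians run from 6.06 for lateral root initiation to -1.48 for nuclear photosynthesis.

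Photosynthesis genes of the nucleus had the lowest median of the lists with at least 3 genes measured, -1.48: 18 of 20 fell, 15 of the 20 passed the signal threshold in both groups, and the count was 16 to 18 without any one array. PSAN, a photosystem I subunit, had 140.2 and 118.0 in NAA roots, against 1244.9 and 944.1 in mock roots (log2 difference -2.90 ± 0.20, limma adjusted p = 1.06e-07). LHCB4.2, a light-harvesting protein, had 44.2 and 25.9 with NAA and 783.7 and 514.2 with mock. PRK, phosphoribulokinase of the Calvin cycle, had 149.4 and 148.6 with NAA and 1138.9 and 717.0 with mock. For each of the 3, both NAA signals lay below the signal threshold and both mock signals above it. One member rose: AT4G38100 (CURT1D), of a family that curves thylakoid membranes, had 3417.3 and 3111.9 with NAA and 594.0 and 571.6 with mock (2.45 ± 0.16), whereas its relatives AT4G01150 (CURT1A) and AT1G52220 (CURT1C) fell, by differences of -0.86 ± 0.16 and -1.94 ± 0.26. Genes encoded in the plastid genome moved less, with 4 of 62 lower (6 at an unadjusted p), none higher by either and a median of -0.38, and without 1 array 1 to 14 of them were lower.

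Tetrapyrrole and chlorophyll synthesis fell with a median of -1.17, 8 of 10 genes lower and none higher, the same counts as at an unadjusted p. CHLM, a methyltransferase of the chlorophyll branch, had 579.1 and 528.2 with NAA and 2910.2 and 2905.6 with mock (log2 difference -2.36 ± 0.17, limma adjusted p = 1.49e-07). PORB, protochlorophyllide reductase, had 151.7 and 351.6 with NAA and 1401.3 and 1052.8 with mock. AT1G74470, geranylgeranyl reductase, which supplies the chlorophyll side chain, differed by -1.75 ± 0.19.

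Sugar transporters fell as well. Of 7 SWEET proteins, which let sugars pass membranes along their gradient, 6 were lower (7 at an unadjusted p) and none higher by either, and 3 to 6 were lower without 1 of the arrays. SWEET11, a sucrose exporter, had 362.2 and 375.0 with NAA and 3209.2 and 5820.6 with mock (log2 difference -3.49 ± 0.26, limma adjusted p = 2.06e-07), and SWEET17, a fructose carrier of the vacuole, had 1152.5 and 1161.4 with NAA and 4427.2 and 3895.2 with mock. OCT1, an organic cation transporter, fell to 13.0 and 10.4 with NAA, against 702.6 and 312.2 with mock (-4.0 ± 0.42). It was 1 of 3 listed genes of its family, and the other 2 did not pass. Of 6 listed nitrate and peptide transporters 1 rose, 1 fell and 4 did not pass, with a median of -0.06. The rise was AT1G59740 (NPF4.3), with 6424.1 and 6321.5 with NAA and 592.5 and 558.7 with mock (3.43 ± 0.16).

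Enzymes of conjugation and secondary metabolism were lower more often than higher. Of 31 UGT glycosyltransferases, 18 fell and 3 rose with a median of -0.59, and 12 to 17 fell when 1 array was left out. Of 11 glutathione transferases, 6 fell and 1 rose, a rise lost without NAA replicate 2 or mock replicate 1, and of 7 cytochromes P450, 4 fell and none rose, 1 being higher at an unadjusted p. Some of these falls were near the threshold. The glutathione transferase GSTU20 differed by -1.17 ± 0.45 (limma adjusted p = 0.0494). Its difference was -0.36 without mock replicate 1 and -1.97 without mock replicate 2. The cytochrome P450 CYP71B23 differed by -0.45 ± 0.15 (limma adjusted p = 0.0254). BCAT4, which starts the methionine chain elongation of glucosinolates, had 263.8 and 145.2 with NAA and 10808.9 and 2723.7 with mock. The mock arrays of BCAT4 were far apart, and its difference of -4.66 ± 0.51 was -3.67 without mock replicate 1 and -5.65 without mock replicate 2. UGT74B1, a later enzyme of that pathway and also 1 of the UGT falls above, had 689.0 and 1259.5 with NAA and 3580.0 and 3090.5 with mock (-1.81 ± 0.23). BCAT4 and UGT74B1 were the only falls among 4 measured genes of glucosinolate synthesis and transport. The other 2 did not pass, and 3 of the 4 passed the signal threshold in both groups. Both BCAT4 and UGT74B1 were higher in mock than at 0 h (limma adjusted p = 0.0328 and 0.0286).

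Gibberellin receptors and tetraspanins were also lower. All 3 gibberellin receptors fell, GID1A most, with 623.1 and 605.1 with NAA and 2125.7 and 1830.8 with mock (log2 difference -1.65 ± 0.17, limma adjusted p = 4.35e-06); GID1B lost its call without NAA replicate 1 or mock replicate 2 (adjusted p up to 0.114). Of 6 tetraspanins, membrane scaffold proteins, 5 fell, and TET5 had 756.3 and 605.2 with NAA and 2296.0 and 2207.3 with mock. Of 6 receptor kinases 3 fell, 1 rose and 2 did not pass. BRL1, a brassinosteroid receptor of vascular tissue, was the rise, at 2359.9 and 1847.4 with NAA and 299.5 and 247.9 with mock (2.85 ± 0.20). AT1G08590 (PXL1), a receptor-like kinase related to the receptor of the CLE44 peptide, was lower, at 278.6 and 150.9 with NAA and 1084.2 and 1326.2 with mock. ATG8, the proteins of the autophagosome membrane, had 5 of 9 genes lower and 1 higher, ATG8G, at 2481.2 and 2114.8 with NAA and 881.0 and 912.9 with mock.

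Families of signalling peptides and cytoskeletal proteins split by member. Of 7 RALF peptides, which act on cell growth through receptor kinases, 4 fell and 2 rose, 5 of the 7 passed the signal threshold in both groups, and without 1 array 2 to 4 fell and 0 to 2 rose. RALFL32 had 2943.8 and 2739.7 with NAA and 9183.8 and 9456.0 with mock (log2 difference -1.71 ± 0.14, limma adjusted p = 3.92e-07), whereas RALFL22 had 2706.7 and 1978.7 with NAA and 1528.9 and 1455.9 with mock, a rise whose call was lost without NAA replicate 1. Of 8 IQD proteins, which bind calmodulin and microtubules, 3 rose and 4 fell, and 1 to 3 rose and 3 to 4 fell without 1 array. Only 4 of the 8 passed the signal threshold in both groups: all 3 that rose passed in NAA only, and IQD30 passed in mock only. In that family iqd15 had 644.9 and 342.2 with NAA and 87.4 and 52.3 with mock, and IQD30 had 199.2 and 210.9 with NAA and 610.4 and 563.2 with mock. Of 6 tubulins 2 fell and 1 rose. TUB6 fell by 1.17 on the log2 scale, at 1492.7 and 1560.7 with NAA and 3471.7 and 3447.3 with mock. TUB7 was the rise, at 2978.5 and 2066.2 with NAA and 1615.3 and 1403.3 with mock (0.71 ± 0.24), a call lost without NAA replicate 1 or mock replicate 2.

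Genes of iron and metal homeostasis were lower where they passed. Of 11 genes of iron and metal homeostasis 5 fell and none rose, 2 being higher at an unadjusted p. The transcription factor bHLH115, of the iron deficiency response, had 4111.4 and 4185.4 with NAA and 7647.0 and 7380.4 with mock. Its relative bHLH104 had 2136.0 and 2476.7 with NAA and 4482.4 and 3941.3 with mock. ZIP6, a metal transporter of the ZIP family, had 511.0 and 470.3 with NAA and 1043.6 and 1281.7 with mock. XERICO, a RING protein that raises abscisic acid, had 1101.0 and 1210.6 with NAA and 3632.5 and 3188.2 with mock (log2 difference -1.54 ± 0.14, limma adjusted p = 1.17e-06). COR47, a dehydrin, had 25062.1 and 24636.9 with NAA and 35491.7 and 60310.9 with mock, and lost its call without mock replicate 2 (adjusted p = 0.121). Of 7 genes of jasmonate and ethylene signalling, 2 fell and 1 rose, and 1 fell without NAA replicate 1 or mock replicate 1. MYC3, a transcription factor of jasmonate signalling, fell by 1.7 on the log2 scale, and RTE1, a regulator of ethylene perception, was the rise at 788.5 and 1164.1 with NAA and 536.7 and 429.9 with mock, a call lost without NAA replicate 2 or mock replicate 2.

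The steepest changes included genes that the annotation gives only as a locus. AT4G37290 had 4871.2 and 4551.1 in NAA roots, against 10.7 and 13.9 in mock roots, and its neighbour AT4G37295 had 10755.8 and 9320.4 with NAA and 10.0 and 154.9 with mock. AT1G67750 had 10228.7 and 10330.3 with NAA and 96.3 and 45.1 with mock. The largest fall was that of AT4G11190, at 16.9 and 18.6 with NAA and 3687.0 and 4549.0 with mock (log2 difference -6.81 ± 0.38, limma adjusted p = 1.58e-08). AT4G30450 and its neighbour AT4G30460 fell together, AT4G30450 to 418.4 and 188.4 with NAA, against 10612.5 and 13325.2 with mock. Of 2403 pairs of neighbouring genes measured, 3 had both members past 8-fold in the same direction, these being AT4G37290 with AT4G37295, AT4G13190 with CLE44, and AT4G30450 with AT4G30460. Of 83 genes with several probe sets, 41 had at least 1 called, and only 14 of these had all called, in every case in the same direction. None was called in both directions.

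For some of these genes the mock level itself differed from 0 h, so the choice of baseline matters. Both comparisons share the mock arrays, and their values are given side by side only. Of the 31 UGT glycosyltransferases, 7 were higher in mock than at 0 h and 0 lower, against 3.12% and 2.13% of members. Of the 5 class III peroxidases 2 were higher and 0 lower, and of the 20 nuclear photosynthesis genes 0 were higher and 1 lower. SWEET11 was at 3209.2 and 5820.6 in mock and 12859.5 and 13295.9 at 0 h, and LHCB4.2 at 783.7 and 514.2 in mock and 1564.3 and 1693.6 at 0 h, so both were already lower in mock (limma adjusted p = 0.00427 and 0.0391). The SWEET11 call held without any one of these arrays, with an adjusted p up to 0.039, whereas that of LHCB4.2 was lost without each of them in turn, with an adjusted p up to 0.223. Other genes were higher in mock than at 0 h: CHIL, a flavonoid pathway protein, at 4319.1 and 4021.1 in mock and 722.9 and 959.3 at 0 h, XTH20 at 1524.1 and 1557.6 in mock and 357.3 and 631.4 at 0 h, and AT4G11190 at 3687.0 and 4549.0 in mock and 656.1 and 695.6 at 0 h. With NAA, CHIL read 2314.8 and 2280.1, which is below mock but above 0 h, and XTH20 read 722.1 and 638.5. GH9C2 rose in mock, at 3981.2 and 2414.4 against 773.5 and 1140.3 at 0 h, and stood at 25181.0 and 26534.1 with NAA. These calls of CHIL, XTH20, AT4G11190 and GH9C2 held without any one array. In contrast, GH3.1, LBD16, LBD29, PUCHI and the ribosome synthesis genes named above did not pass between mock and 0 h.

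**Figure D4:**
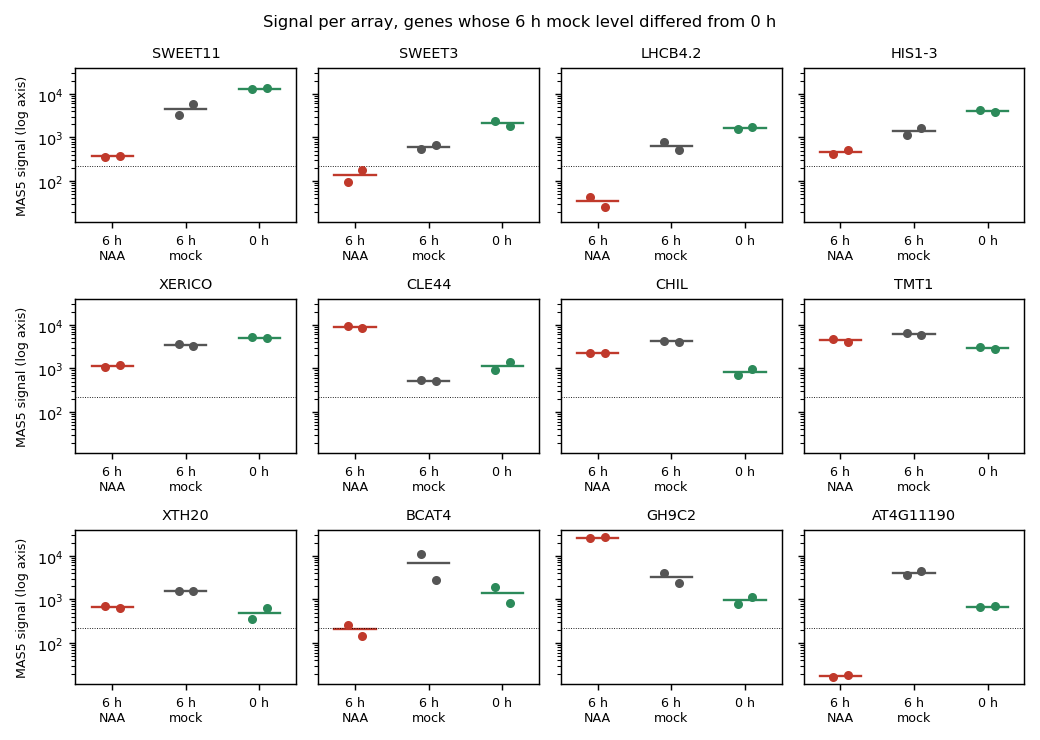
Signal of 12 genes whose 6 h mock level differed from 0 h in limma, on each Col-0 array (points, 2 per group) at 6 h NAA, 6 h mock and 0 h, with the mean as a bar; the calls of LHCB4.2, SWEET3, XERICO, BCAT4 and CLE44 between mock and 0 h are lost without at least 1 array. The vertical axis is MAS5 signal on a log axis and the dotted line is the signal threshold; SWEET11 is lowest with NAA and highest at 0 h, whereas CHIL with NAA lies between mock and 0 h.

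The levels in the other groups of the series show when the NAA levels were reached. In Col-0, GH3.3 read 39916.7 and 37074.5 at 2 h of NAA and 43359.8 and 41303.7 at 6 h, and LBD29 read 10341.8 and 8654.8 at 2 h and 13989.8 and 11781.0 at 6 h. PUCHI was at 941.8 and 875.8 at 2 h and 11380.8 and 9395.6 at 6 h. IAA20 and PR-1-LIKE, named for its likeness to a pathogenesis-related protein, were below the signal threshold at 2 h, with 6.2 and 5.9 and with 5.1 and 14.6, and PR-1-LIKE had 5130.1 and 3182.5 at 6 h. PRL, AUR1 and NRPA1 were at 505.9 and 411.9, 614.1 and 468.6, and 830.6 and 843.9 at 2 h. At 2 h GH3.1 read 4965.0 and 3972.1, against 14877.7 and 13871.4 at 6 h. IAA29 read 2009.6 and 1950.9 at 2 h and 6588.1 and 6086.8 at 6 h. GH3.3 and LBD29 were thus close to their 6 h level by 2 h. GH3.1, IAA29, PUCHI, PRL, AUR1 and NRPA1 were well below it. These differences were not tested. The series has no mock group at 2 h, so NAA and handling cannot be told apart there.

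The slr-1 mutant, in which a stabilized form of the Aux/IAA protein IAA14 blocks lateral root formation, had no mock group, so its levels at 6 h of NAA are given as a description. LBD16 was at 980.0 and 1287.9 in slr-1 and 8483.8 and 7374.9 in Col-0, PUCHI at 297.4 and 251.4 in slr-1 and 11380.8 and 9395.6 in Col-0, and PRL at 779.9 and 829.6 in slr-1 and 2697.4 and 2099.0 in Col-0. The GH3 genes differed among themselves. GH3.1 was at 322.0 and 358.5 in slr-1 and 14877.7 and 13871.4 in Col-0. WES1 was at 12158.7 and 7734.5 in slr-1 and 43514.2 and 39838.8 in Col-0. GH3.3 was at 35158.6 and 16149.9 in slr-1 and 43359.8 and 41303.7 in Col-0. The lower slr-1 values of WES1 and GH3.3 come from an array that stands apart at high signal. Its highest signal was 29349.7, against 58837.1 to 124830.4 on the other arrays. OCT1 was at 5089.7 and 8087.0 in slr-1 and at 13.0 and 10.4 in Col-0.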

How the data were processed

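The deposited values are microarray intensity values, 1 unlogged signal per probe set and array, which the authors made with MAS5, per the submitters' processing notes. Settings of that software are not given in the sources used here. With the top and bottom 2% removed, all arrays had the same mean signal, 1000.1, and no further normalization was applied. Detection calls were not used here. Signals were transformed as log2(signal + 18.9), 18.9 being the pooled 10th percentile of the deposited intensities. One mean per group was fitted to all 14 arrays in limma 3.58.1 (R 4.3.3) with a mean-dependent prior, 7 residual and 6.57 prior degrees of freedom, and p-values were Benjamini-Hochberg adjusted over 14883 probe sets. An exact permutation of 2 against 2 arrays cannot go below 0.333. The fit was also run on simulated data in which few probe sets, none of them dim, were changed by known folds. That run does not bear on the calls of dim genes or on how many members were called. Of the members, 7682 had 1 gene in the probe annotation, 279 several and 6187 none. Genes named are the 15 highest rises and 15 largest falls with non-overlapping arrays and signals above 1000, up to 4 called members per list, and GH3.1, LBD16, LBD29 and PUCHI, plus 2 members of lists without a call; BOB1, HON4, KEU, NRPA2, NRPC1, NRPC2, POLD3, RALFL22, RCA, bHLH115, AT4G01150 and AT1G52220, the genes named as not passing the test, and those shown at 2 h and in slr-1 were chosen after values were seen. Members and 59 gene lists were chosen with earlier results of these data known. The number of arrays limits the precision. The alternatives were other additive constants, filters, normalizations and array subsets.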

Additional observations from a re-analysis of the deposited data

How the results depend on the processing

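Col-0 6 h NAA against 6 h mock gave 3044 higher and 3634 lower, and both counts stayed within 1.5 times of these under each alternative tried: an additive constant of 1 or 100, no signal filter or one at 500, quantile normalization, median centring, no mean-dependent prior, only the 4 arrays, no probe sets shared between genes, and adjustment over the members alone. Leaving out 1 of the 4 arrays gave 2358 to 2703 higher and 2609 to 3021 lower; there the lone array is assumed to vary like the other groups. The number of list genes called, 97 higher and 173 lower, stayed within 1.5 times as well. The replicate numbers are shared between groups, but same-numbered arrays deviated together only weakly (correlations of -0.161 to 0.128 over 21 pairs of groups, 0.116 for NAA with mock), so they were not taken as pairs; with the replicate number as a block the counts were 3032 and 3605, and 402 and 294 for mock against 0 h. The mock against 0 h counts, 441 higher and 302 lower, were less stable: 273 and 187 without the mean-dependent prior, 256 and 187 with only its 4 arrays, and 165 to 301 higher and 89 to 261 lower with 1 of its arrays left out; the cause was not tested. Of 205 named genes, 151 kept their side of the threshold under every alternative that tested them, 54 crossed it under at least 1 and 0 changed direction. With 1 added instead of 18.9 the median of the Aux/IAA genes was 4.59, and with 100 it was 2.65. The planned count of promoter motifs was not run, since no promoter sequences were used here. Having 2 arrays per group limits what can be detected among dim genes.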
